A study of Mus musculus with 32 samples.

Results

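Ribosome-bound mRNA of Leydig cells was compared between 4 h and 1 h after an injection of LH into mice that had been deprived of their own gonadotropins. The comparison used the 4 immunoprecipitate (IP) arrays whose titles name acyline and LH for 4 h (2 arrays) or for 1 h (2 arrays), out of 32 arrays in the series. It addressed which transcripts had a lower level in the IPs at 4 h than at 1 h and which had a higher one. All Leydig arrays came from testes of Cyp17iCre:RiboTag mice, in which a ribosomal protein carries an HA tag in cells that have expressed Cre from a Cyp17 promoter, so an anti-HA antibody recovers the ribosomes of those cells with their mRNAs. Both LH groups had first been given acyline, a GnRH antagonist, over 4 days, and purified human LH was then injected once. The other Leydig IPs used here were 2 from mice given acyline without LH and 3 from mice given saline. Mice of all 4 Leydig groups carried the same Cre and RiboTag alleles, and the labels give no age. Whole-testis (input) arrays exist only for saline mice, 3 of them from this line. After LH, a change in mRNA amount and one in ribosome binding thus cannot be told apart. A later comparison used Sertoli IPs of AMH-Cre:RiboTag mice: 5 given saline, 2 given acyline, and 2 each given acyline and then FSH for 1 h or 4 h. In the Cyp17iCre:RiboTag line the study's staining also found the tag in scattered cells inside the seminiferous tubules. The study proposes that these are Sertoli cells, so the Leydig IPs do not hold Leydig cell ribosomes alone.

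LH binds a G-protein coupled receptor on Leydig cells, which raises cyclic AMP and activates protein kinase A. The kinase phosphorylates CREB, a factor that binds the cyclic AMP response element of target promoters and switches on immediate early genes, many of which code for transcription factors with short-lived mRNAs. Later steps of the response supply cholesterol to the mitochondria, where the side-chain cleavage enzyme starts its conversion to testosterone.

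Levels are log2 RMA signals, and a difference between groups is a log2 difference of group means. Equal amounts of RNA were put on each array, so a level is a share of the recovered RNA, and fewer cells of a type and less RNA per cell cannot be told apart. The labels do not say whether arrays of a group came from different mice, so p-values measure the spread between these arrays, and the small number of arrays limits the precision. The median level over all probe sets was 6.40 and 6.41 in the LH 4 h arrays against 6.47 to 6.50 in the other 7 Leydig IPs. The correlation between the LH 4 h arrays (0.984) and between the LH 1 h arrays (0.986) was lower than the closest match of each saline and acyline array within its group (0.990 or 0.991). Of 13 Leydig cell markers all were measured, among them Lhcgr, the LH receptor, at 11.83 and 11.54 in the LH 1 h arrays and 12.05 and 11.89 in the LH 4 h arrays. Of the 13, 4 had both LH 4 h arrays above both LH 1 h arrays and 6 below, beside 20.4% and 22.2% of all probe sets. Their median difference was -0.04. The list holds Star and Cyp11a1, whose means were higher at LH 4 h, and a linear sum is weighted to bright genes. Summed linear signals of the marker lists ranged from 66541 to 69935 (LH 1 h) and 70113 to 79255 (LH 4 h) for Leydig cells, from 26910 to 28640 and 25102 to 27056 for 20 Sertoli cell markers, and from 41097 to 47195 and 46044 to 53844 for 18 spermatid markers. Macrophage (14 genes) and endothelial (9 genes) markers summed to 1105 or less and 599 or less in the 4 LH arrays. The 2 measured red blood cell markers summed to 674 in LH 4 h replicate 2 and to between 225 and 446 in the other 8 arrays.

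Of 24461 probe sets with a linear signal over 50 in at least 1 Leydig IP, 10 were higher (0.0409%) and 39 were lower (0.159%) at LH 4 h than at LH 1 h, with a limma adjusted p under 0.05 and a 1.5-fold difference. The median difference over all tested probe sets was -0.0029, with a median standard error of 0.135. With an unadjusted p and the same fold, 298 were higher (1.22%) and 488 lower (2.00%). The counts changed with single arrays. Without LH 4 h replicate 1 none was called in either direction, and without LH 4 h replicate 2 there were 169 higher and 169 lower. Without LH 1 h replicate 1 there were 1 and 4, without LH 1 h replicate 2 there were 3 and 21, and without any one acyline or saline array there were 2 higher and 3 to 13 lower. Of the 10 higher probe sets 5 name 1 gene, and of the 39 lower ones 32 do. Gem and Trp53inp1 passed in 8 of the 9 fits that left out 1 array, Hvcn1 and Lifr in 7, and Klhl14 in 5. The comparisons of LH 1 h and of LH 4 h with acyline use the same arrays as this one, so their values are set beside it and are not independent of it. At LH 1 h, 2 probe sets were higher than with acyline (0.00818%), those of Sik1 and Amotl2, and 0 were lower (0%) by limma, with 210 higher and 85 lower at an unadjusted p. At LH 4 h, 60 were higher than with acyline (0.245%) and 90 were lower (0.368%).

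The 5 named transcripts that rose from 1 h to 4 h were those of a lactate carrier, a phospholipid enzyme, a cyclic AMP phosphodiesterase, a proton channel and an uncharacterized gene. None of them was called against acyline at 1 h, and all 5 had a higher mean at LH 4 h than with saline. Slc16a3 codes for the monocarboxylate transporter MCT4, which carries lactate and protons out of cells. Its levels were 8.23 and 8.0 with acyline, 8.90 and 8.40 at LH 1 h and 11.67 and 11.03 at LH 4 h, against 9.32 to 9.99 with saline. Both 4 h arrays lay above every other Leydig IP, and the 4 h mean was 6.51-fold that at 1 h (log2 2.70, SE 0.28, limma adjusted p = 0.023). Slc16a3 passed in 4 of the 9 fits without 1 array, where its difference ran from 2.38 to 3.02.

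Etnk2, an ethanolamine kinase at the start of phosphatidylethanolamine synthesis, measured 9.36 and 9.04 at LH 1 h and 11.47 and 11.04 at LH 4 h. Its acyline arrays, at 9.71 and 8.79, enclosed both LH 1 h arrays, and its probe set takes its name from the study's lists of enriched transcripts. The rise from 1 h to 4 h was 4.17-fold (log2 2.06, SE 0.27, adjusted p = 0.037). Hvcn1, a voltage-gated proton channel, had narrow groups before 4 h, with 5.89 and 5.87 under acyline, 6.08 and 6.06 at LH 1 h and 8.02 and 7.62 at LH 4 h. That rise was 3.36-fold (log2 1.75, SE 0.15, adjusted p = 0.0099). The uncharacterized transcript 1700008P02Rik rose 1.78-fold (log2 0.83, SE 0.10, adjusted p = 0.033), from 5.78 and 5.87 to 6.69 and 6.61, and was depleted in the saline IPs against input, with a ratio of 0.160.

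Pde4d, whose product breaks down cyclic AMP, was called on 1 of its 2 tested probe sets (10407124). There the LH 1 h levels were 5.61 and 4.82, below the signal of 50 (log2 5.64), and the LH 4 h levels were 6.95 and 7.0, a difference of 1.77 (SE 0.22, adjusted p = 0.033). The probe set with the higher mean level (10407097) gave 7.49 and 6.94 at 1 h and 8.0 in both 4 h arrays, a difference of 0.79 (SE 0.21) that did not pass (adjusted p = 0.155). Of the 12 tested cyclic AMP phosphodiesterases, counted by their brightest probe set, none was called, 2 were higher at an unadjusted p, and 5 had both 4 h arrays above both 1 h arrays and 0 below, beside 20.4% and 22.2% of all probe sets. Pde10a was the other of those 2, at 7.78 and 8.08 against 9.13 and 8.62 (difference 0.94, SE 0.18, adjusted p = 0.084).

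**Figure D1:**
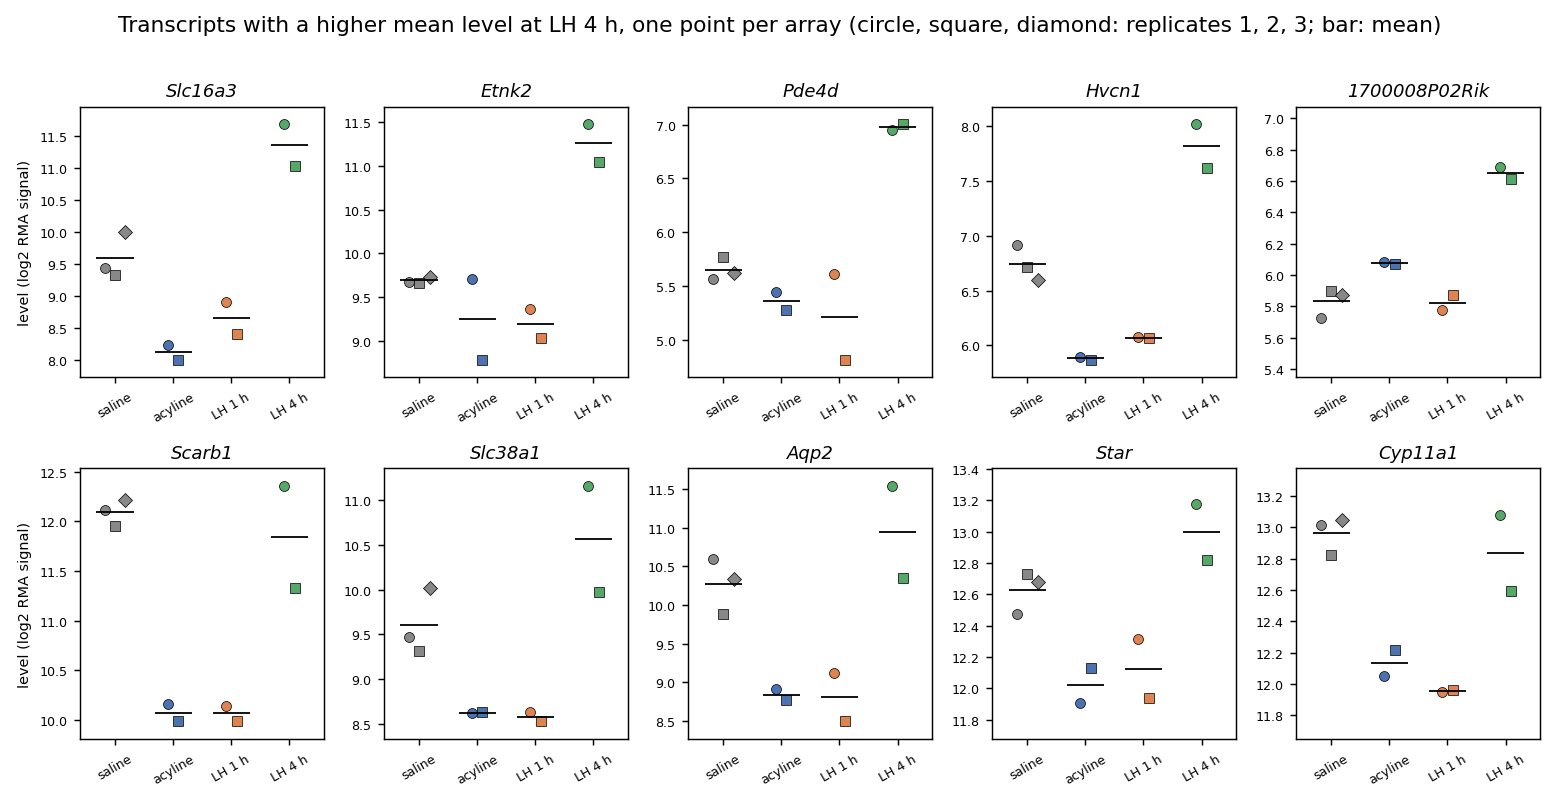
Levels (log2 RMA signal, vertical axis, own scale in each panel) of 10 transcripts in the 9 Leydig IPs by treatment (horizontal axis), with 1 point per array and a bar at the group mean. The upper row holds the 5 called genes, with Pde4d on probe set 10407124, and the lower row holds 5 genes that did not pass the threshold; in the lower row LH 4 h replicate 1 lies above replicate 2 in each panel.

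No member of the list of 17 steroidogenic enzymes and factors was called. At an unadjusted p, 4 of them were higher (Star, Cyp11a1, Fdx1 and Por) and 1 was lower (Gata4), and the list's median difference was 0.02 beside -0.0029 for all probe sets. Star, which brings cholesterol into mitochondria, measured 12.31 and 11.94 at LH 1 h and 13.17 and 12.82 at LH 4 h, without overlap (difference 0.87, SE 0.17, adjusted p = 0.090). Cyp11a1, the side-chain cleavage enzyme, went from 11.95 and 11.96 to 13.07 and 12.59 (difference 0.88, SE 0.16, adjusted p = 0.071). Its electron donor ferredoxin, Fdx1, gave 10.96 and 10.64 against 12.08 and 11.37 (difference 0.93, adjusted p = 0.138). Por, the reductase that passes electrons to Cyp17a1, had the largest difference of the list, with 10.10 and 9.87 against 11.48 and 10.40 (0.95, SE 0.29, adjusted p = 0.184). The enzymes Cyp17a1, Hsd3b1 and Hsd3b6 differed by 0.34, -0.25 and -0.14, with no call.

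Scarb1, the receptor that takes up cholesterol from high-density lipoprotein, had the largest difference among genes of cholesterol uptake. It read 10.16 and 9.98 with acyline, 10.14 and 9.99 at LH 1 h and 12.35 and 11.33 at LH 4 h, while saline arrays lay between 11.95 and 12.21. Both 4 h arrays lay above the 1 h arrays but far apart from each other, and the difference of 1.77 (SE 0.27) missed the threshold (adjusted p = 0.058), while that from acyline to 4 h passed (adjusted p = 0.043). Stard5, a cholesterol-binding relative of Star, gave 9.88 and 9.61 against 10.95 and 10.33 (adjusted p = 0.174), and Stard4 gave 8.86 and 8.91 against 9.65 and 8.49. The lysosomal lipase Lipa fell (9.52 and 9.43 to 8.73 and 8.71, difference -0.75, SE 0.10, adjusted p = 0.036). The cholesterol exporter Abca1 stood at 11.98 and 11.88 at 1 h and 11.15 and 10.82 at 4 h (difference -0.95, SE 0.16, adjusted p = 0.066). Over the 21 tested genes of cholesterol uptake, storage and transfer, Lipa was the 1 called, 0 were called higher (3 higher and 2 lower at an unadjusted p), and 8 had both 4 h arrays below both 1 h arrays and 3 above, beside 22.2% and 20.4% of all probe sets. Of 23 tested genes of cholesterol synthesis, 0 were called (1 higher and 0 lower at an unadjusted p), with a median of 0.02.

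Several membrane transporters and heme genes also read higher in LH 4 h replicate 1 than in replicate 2. Slc38a1, a sodium-coupled glutamine carrier, read 8.63 and 8.53 at LH 1 h and 11.15 and 9.97 at LH 4 h (difference 1.98, SE 0.35, adjusted p = 0.068). Aqp2, a water channel, read 9.12 and 8.49 against 11.54 and 10.36 (difference 2.14, SE 0.38, adjusted p = 0.068). For both genes replicate 1 lay above the saline arrays and replicate 2 within their range. Of 21 tested amino acid transporters 0 were called, 4 were higher at an unadjusted p (Slc38a1, Slc7a1, Slc7a11 and Slc1a4, all named by the study), and the median difference was -0.02. Among heme and iron genes, the transferrin receptor Tfrc went from 7.90 and 7.74 to 10.61 and 8.47 and heme oxygenase Hmox1 from 8.23 and 7.83 to 10.12 and 8.98, with adjusted p = 0.221 and adjusted p = 0.099. Prkar2b, a regulatory subunit of protein kinase A, went from 7.56 and 7.33 to 9.77 and 8.63 (difference 1.75, adjusted p = 0.099). Without LH 4 h replicate 2, Scarb1 (2.29), Slc38a1 (2.57), Aqp2 (2.74), Tfrc (2.79), Hmox1 (2.09), Prkar2b (2.32), Cyp11a1 (1.12), Fdx1 (1.28) and Por (1.49) all passed the threshold, with replicate 1 as the lone 4 h array and assumed to vary like the other groups.

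Immediate early genes were mixed, and none was called between 4 h and 1 h. Of 58 tested members of 4 lists (AP-1 and ATF factors, Egr and Klf zinc finger factors, Nr4a orphan receptors and other immediate early genes), 0 were called by limma, while 7 were lower and 1 higher at an unadjusted p. Both 4 h arrays lay below both 1 h arrays for 20 of the 58 (22.2% of all probe sets did so) and above them for 5 (20.4% of all). The median difference of the 58 was -0.12, and it was -0.04 when each array was centred on its median and -0.09 after another quantile normalization.

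Nr4a1, an orphan nuclear receptor that binds promoters of steroidogenic genes, measured 8.21 and 8.31 with acyline, 11.31 and 10.17 at LH 1 h and 9.11 and 8.79 at LH 4 h. The 3 groups did not overlap, and the 1 h mean was 3.46-fold the 4 h mean (log2 -1.79, SE 0.31, adjusted p = 0.068). Btg2, an antiproliferative factor, had the most negative difference of the 58, with 9.99 and 8.08 at 1 h and 6.84 and 6.79 at 4 h, next to acyline levels of 6.86 and 7.13 (difference -2.22, SE 0.48, adjusted p = 0.102). The AP-1 subunit Fos measured 8.38 and 6.28 at 1 h and 5.63 and 5.48 at 4 h (difference -1.77, SE 0.52, adjusted p = 0.177). The zinc finger factor Egr1 measured 9.35 and 6.72 against 6.89 and 6.36, so its groups overlapped (difference -1.41, SE 0.66, adjusted p = 0.342). Junb (7.80 and 7.02 against 6.62 and 6.65) and Zfp36, which speeds the decay of AU-rich mRNAs (8.02 and 7.28 against 7.03 and 7.02), did not overlap and did not pass. Both Fos arrays at 4 h lay below the signal of 50 (log2 5.64). In each of these genes LH 1 h replicate 1 was the higher array. Leaving out LH 1 h replicate 2 leaves that higher array alone, with its spread taken from the other groups. The differences were then -3.17 for Btg2, -2.82 for Fos, -2.73 for Egr1, -2.47 for Ptgs2, -2.36 for Nr4a1 and -1.45 for Dusp1. Both 4 h arrays of Ptgs2 also lay below the signal of 50, so the size of its difference is uncertain. Without LH 1 h replicate 1 the differences were -1.26 for Btg2, -1.22 for Nr4a1, -0.75 for Dusp1, -0.73 for Fos and -0.09 for Egr1, none of them called, and Ptgs2 did not pass the signal filter.

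Several feedback inhibitors of the signal also had higher means at 1 h than at 4 h without passing the test. Dusp1, a phosphatase that switches off MAP kinases, read 7.93 and 7.77 with acyline, 9.55 and 8.84 at LH 1 h and 8.19 and 8.0 at LH 4 h (difference -1.10, SE 0.20, adjusted p = 0.071). Rgs2, which shortens G-protein signals, read 7.63 and 7.65, then 10.20 and 8.95, then 8.54 and 8.47 (difference -1.07, SE 0.34, adjusted p = 0.196). Rasd1, a Ras-like G protein, read 11.86 and 11.62 at 1 h and 9.82 and 10.40 at 4 h (difference -1.63, SE 0.25, adjusted p = 0.058), with both 4 h arrays below the acyline arrays (11.32 and 10.68). Of 19 tested Dusp, Sprouty and Socs genes 0 were called, 4 were lower and 0 higher at an unadjusted p, and 10 had both 4 h arrays below both 1 h arrays and 3 above, beside 22.2% and 20.4% of all probe sets. Gem was the 1 called member among 9 tested Rgs, Gem and Ras-like genes, and its 1 h mean differed from acyline by 0.04.

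Other early transcripts were still above their acyline level at 4 h. Sik1, a kinase that keeps CREB coactivators out of the nucleus, rose from 7.74 and 7.76 with acyline to 10.12 and 9.52 at LH 1 h (adjusted p = 0.040) and was at 9.49 and 9.32 at LH 4 h (adjusted p = 0.018 against acyline). Its 4 h arrays lay just below its 1 h arrays (difference -0.42, SE 0.18, adjusted p = 0.304). Amotl2, an angiomotin of the Hippo pathway, rose by 1.28 from acyline levels of 8.63 and 8.51, with both LH 1 h arrays at 9.70 or more (adjusted p = 0.045), and stood at 9.42 in both 4 h arrays. Tob1, an antiproliferative relative of Btg2, read 11.11 and 11.03 at 1 h and 11.01 and 10.84 at 4 h and was called against acyline at 4 h (adjusted p = 0.039), as was the repressor Bhlhe40 (8.72 and 7.92 at 1 h, 8.78 and 8.50 at 4 h). Alas1, the first enzyme of heme synthesis, had successive levels of 11.43 and 11.26 under acyline, 12.19 and 12.22 at 1 h and 13.02 and 12.82 at 4 h, and passed against acyline at 4 h (adjusted p = 0.010) but not between 4 h and 1 h (adjusted p = 0.099). Id2, a dominant-negative helix-loop-helix factor, had the largest positive difference of the 58 immediate early genes, from 8.02 and 7.55 to 8.68 and 8.73 (0.92, SE 0.16, adjusted p = 0.068).

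**Figure D2:**
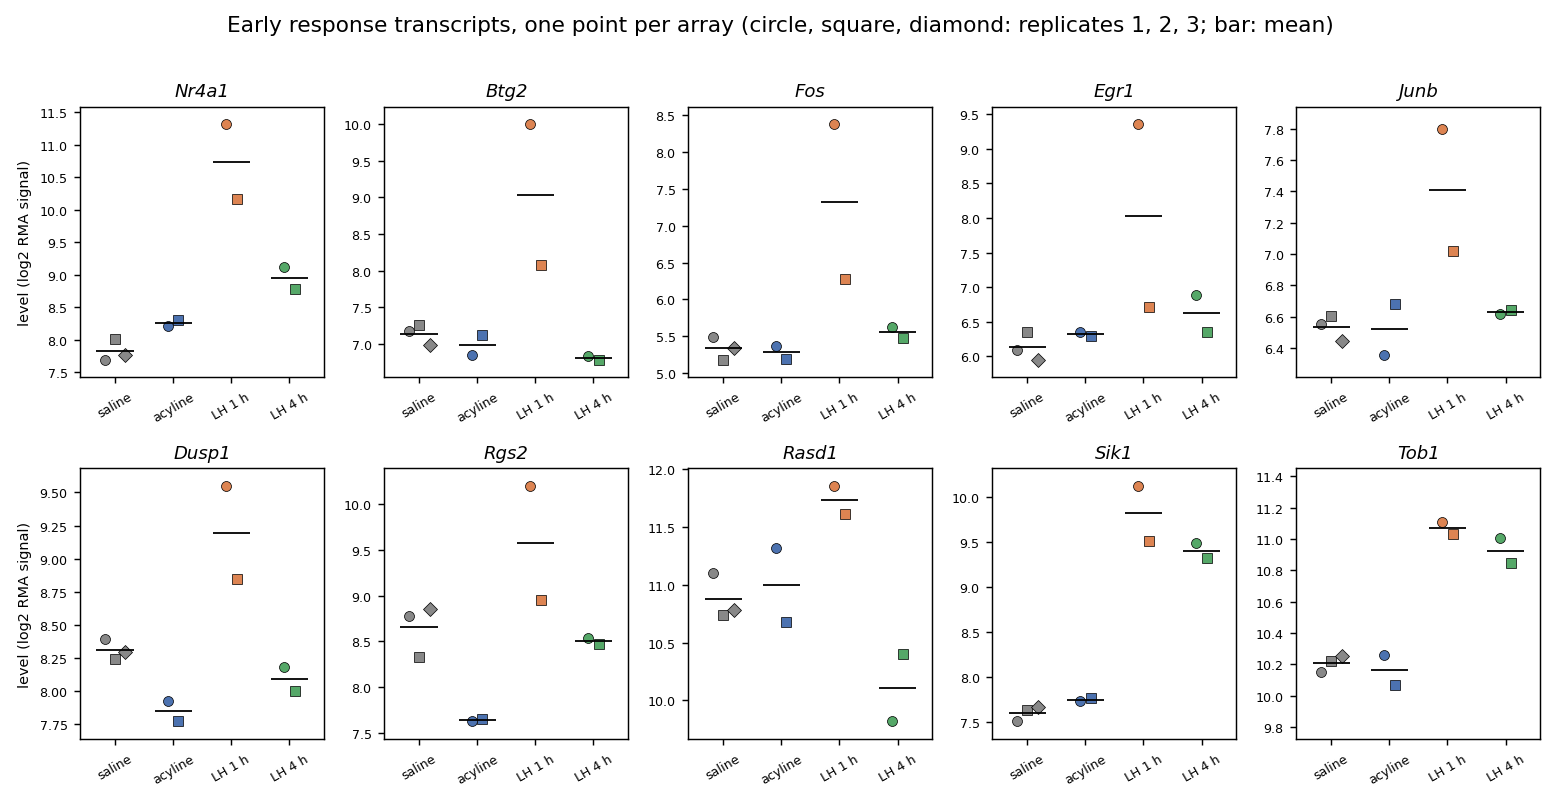
Levels (log2 RMA signal, vertical axis, own scale in each panel) of 10 early response transcripts in the 9 Leydig IPs by treatment (horizontal axis), with 1 point per array and a bar at the group mean. Nr4a1, Btg2, Fos and Egr1 have higher means at LH 1 h than at LH 4 h, with LH 1 h replicate 1 above replicate 2. The LH 1 h and LH 4 h arrays of Egr1 overlap. Sik1 and Tob1 stay near their 1 h level in the LH 4 h arrays.

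Promoters are shown for 4 of the early transcripts and for Slc16a3, the transcript with the largest late rise, because CREB is the best known factor of the early LH response. Each is the 250 bases before the RefSeq start site (GRCm38.p6), on the strand of the gene, with the cyclic AMP response element in capitals, either the full palindrome TGACGTCA or its core TGACG on either strand (CGTCA when it lies on the other strand). They lie at chr15:101266596-101266845 on the plus strand (Nr4a1), chr1:134079156-134079405 on the minus strand (Btg2), chr17:26508473-26508722 on the minus strand (Dusp1), chr12:85473640-85473889 on the plus strand (Fos) and chr11:120948817-120949066 on the plus strand (Slc16a3).
Nr4a1: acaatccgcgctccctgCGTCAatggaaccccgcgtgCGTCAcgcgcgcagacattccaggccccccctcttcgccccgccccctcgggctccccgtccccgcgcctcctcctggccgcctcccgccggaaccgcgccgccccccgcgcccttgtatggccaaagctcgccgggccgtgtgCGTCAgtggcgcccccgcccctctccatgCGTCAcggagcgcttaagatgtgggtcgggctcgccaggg
Btg2: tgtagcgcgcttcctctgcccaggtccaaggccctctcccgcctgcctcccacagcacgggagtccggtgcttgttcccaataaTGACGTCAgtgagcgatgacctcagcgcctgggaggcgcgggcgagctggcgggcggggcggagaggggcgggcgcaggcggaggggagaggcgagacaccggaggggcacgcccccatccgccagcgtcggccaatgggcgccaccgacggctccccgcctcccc
Dusp1: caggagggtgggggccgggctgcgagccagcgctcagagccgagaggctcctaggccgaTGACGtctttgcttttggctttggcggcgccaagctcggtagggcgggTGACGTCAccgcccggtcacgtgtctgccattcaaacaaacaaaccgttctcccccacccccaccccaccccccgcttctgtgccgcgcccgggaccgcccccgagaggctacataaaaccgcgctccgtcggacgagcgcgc
Fos: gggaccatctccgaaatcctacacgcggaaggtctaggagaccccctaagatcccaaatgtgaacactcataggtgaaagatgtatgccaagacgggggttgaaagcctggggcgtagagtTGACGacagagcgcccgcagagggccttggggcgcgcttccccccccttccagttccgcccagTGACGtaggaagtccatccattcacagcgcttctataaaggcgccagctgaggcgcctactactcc
Slc16a3: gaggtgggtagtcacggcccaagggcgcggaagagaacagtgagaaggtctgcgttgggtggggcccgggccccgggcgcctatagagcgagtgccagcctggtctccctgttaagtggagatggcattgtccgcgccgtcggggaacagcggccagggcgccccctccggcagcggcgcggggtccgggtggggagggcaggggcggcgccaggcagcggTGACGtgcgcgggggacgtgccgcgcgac
The Nr4a1 window holds 4 cores, Btg2 holds 1 full element, Dusp1 holds 1 full element and 1 more core, Fos holds 2 cores and Slc16a3 holds 1.

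In the full windows, which run from 250 bases before to 50 after the start, a core on either strand was found for 28 of the 44 immediate early genes with a promoter in the table (63.6%), which counts the cores inside full elements. It was found for 3 of 19 genes that fell (15.8%), for 2 of 4 that rose and for 31.9% of the 12256 tested genes in the table. The full element was in 3 of the 44 immediate early promoters (6.82%), in none of the 19 and the 4, and in 3.21% of those of all tested genes. The AP-1 motif TGANTCA was in 3 of the 44 and 1 of the 19, and the NBRE AAAGGTCA, the monomer site of Nr4a1, in none of these 3 sets, against 6.62% and 1.31% of all tested genes. These are matches of letters in a fixed window and say nothing about binding.

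All 39 probe sets that fell from 1 h to 4 h had a lower mean at LH 4 h than with acyline. In the 39 lower probe sets the median difference from 1 h to 4 h was -1.07, and 25 of them differed by at least 2-fold. Their median difference between LH 1 h and acyline was 0.06, within -0.61 to 0.70, and between LH 4 h and acyline it was -1.06, within -2.10 to -0.42. Among the 32 with 1 gene name, 26 were also called lower at LH 4 h than with acyline (0.368% of all probe sets were), and none was called at LH 1 h. In 31 the LH 4 h mean lay below the saline mean, with no share of all probe sets given. These comparisons reuse the LH 4 h arrays that made the calls, so their outcome follows in part from that choice.

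Gem, a small GTPase that restrains voltage-gated calcium channels, read 8.63 and 8.10 with acyline, 8.20 and 8.61 at LH 1 h and 6.30 and 6.22 at LH 4 h, against 7.05 to 7.11 with saline. It fell 4.43-fold (log2 -2.15, SE 0.18, limma adjusted p = 0.0099), to below all other Leydig IPs. Trp53inp1, a p53-induced stress protein, read 12.01 and 11.73 at 1 h and 10.11 and 9.91 at 4 h and fell 3.63-fold (log2 -1.86, SE 0.14, adjusted p = 0.0095). Stc1, the secreted glycoprotein stanniocalcin 1, had the largest positive difference at 1 h against acyline of the 39: acyline arrays gave 6.49 and 6.08, LH 1 h 6.63 and 7.34 and LH 4 h 5.32 and 5.13. Both 4 h arrays lay below the signal of 50 (log2 5.64), so no fold is given for the fall from 1 h (fitted log2 -1.76, SE 0.22, adjusted p = 0.033), and the difference at 1 h did not pass (0.70). Trim14 (9.49 and 9.58 to 7.92 and 8.0), a tripartite motif protein of antiviral signalling, and Serpinb6b (9.25 and 8.93 to 7.35 and 7.72), an intracellular protease inhibitor, fell 2.98-fold and 2.94-fold.

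The called genes are described by role, arranged after their values were seen. Lifr, the receptor of leukemia inhibitory factor, read 12.09 and 12.15 at LH 1 h and fell to 10.52 and 10.82 (log2 -1.45, SE 0.12, adjusted p = 0.0099). Pdgfra, the alpha receptor of platelet-derived growth factor, went from 10.70 and 10.52 to 9.14 and 9.51 (log2 -1.28, SE 0.17, adjusted p = 0.037). Mertk, a receptor kinase that clears dying cells, went from 9.51 and 9.39 to 8.08 and 8.21, and Tgfbr3, the co-receptor betaglycan, from 11.72 and 11.75 to 10.27 and 10.72. Kit, the receptor of Kit ligand, which Leydig cells and spermatogonia both express, went from 12.27 and 12.28 to 11.40 and 11.50 (log2 -0.82, SE 0.10, adjusted p = 0.033), and the adhesion molecule Vcam1 from 13.24 and 13.14 to 12.01 and 12.42. In each of these 6 genes the 4 h arrays also lay below the acyline and saline arrays. No share of all probe sets is given for this, so it does not set the 6 genes apart. The 4 h mean lay below the saline mean in 31 of the 32 named transcripts that fell. That the 4 h arrays of these 6 genes lay below the 1 h arrays goes with the call, as it held for all 39 lower probe sets. Of 21 tested cytokine and chemokine genes, 2 (Lifr and Vcam1) were called lower, where 0.159% of all probe sets were, and 0 higher (0 at an unadjusted p). Both 4 h arrays lay below both 1 h arrays for 8 and above for 0, beside 22.2% and 20.4% of all probe sets, and the median was -0.14.

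Eya1, a coactivator with phosphatase activity, went from 7.97 and 7.71 to 6.30 and 6.37 (log2 -1.51, SE 0.22, adjusted p = 0.047). Vgll3, a cofactor of TEAD proteins, went from 10.49 and 10.40 to 9.29 and 9.12 (log2 -1.25, SE 0.14, adjusted p = 0.033). Tbx3, a T-box repressor, read 9.26 and 9.46 with acyline, 9.21 and 9.25 at LH 1 h and 8.15 and 8.06 at LH 4 h (log2 -1.13, SE 0.13, adjusted p = 0.033). Tbx2, its closest relative, read 8.09 and 8.19 at 1 h and 7.78 and 7.54 at 4 h (-0.48, adjusted p = 0.198). Of 22 tested T-box factors and nuclear receptors, Tbx3 was the 1 called, 0 were higher (0 at an unadjusted p), 4 were lower at an unadjusted p and 9 had both 4 h arrays below both 1 h arrays and 4 above, beside 22.2% and 20.4% of all probe sets. The 9 included the orphan receptors Nr2f2 (-0.76, adjusted p = 0.067) and Nr0b2 (-0.80, adjusted p = 0.068). Zbtb16, a zinc finger repressor counted among the spermatogonial markers, read 9.07 and 9.17 at 1 h and 6.90 and 7.16 at 4 h (-2.09, SE 0.36), but its saline arrays spanned 7.89 to 9.12 and it did not pass (adjusted p = 0.068).

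Txnip, which binds thioredoxin and restrains glucose uptake, read lower at both times, with 12.42 and 12.50 under acyline, 12.07 and 11.80 at LH 1 h and 10.94 and 10.86 at LH 4 h. The first difference did not pass (-0.53, adjusted p = 0.63) and the second did (-1.03, SE 0.12, adjusted p = 0.033). Klhl14, Clec2d and Tcp11l2 complete the 15 largest falls among called probe sets with 1 gene name, at -1.30, -1.15 and -1.52. The other named transcripts that fell, listed after their values were seen, lay between -1.11 and -0.71: Osr2, Slc45a3, F11r, Boc, Ypel2, Dhrs3, Tnfrsf1b, Plscr2, Btnl5-ps, Grb14, Adgrl2, Pank1 and Reck. Boc is known as a hedgehog co-receptor, Tnfrsf1b as a receptor of tumor necrosis factor and Grb14 as an inhibitor of the insulin receptor. Btnl5-ps and Adgrl2 were not called on their brightest probe sets, where the differences were -0.31 and -0.96, and the 6 probe sets of Adgrl2 ran from -0.96 to -0.60.

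**Figure D3:**
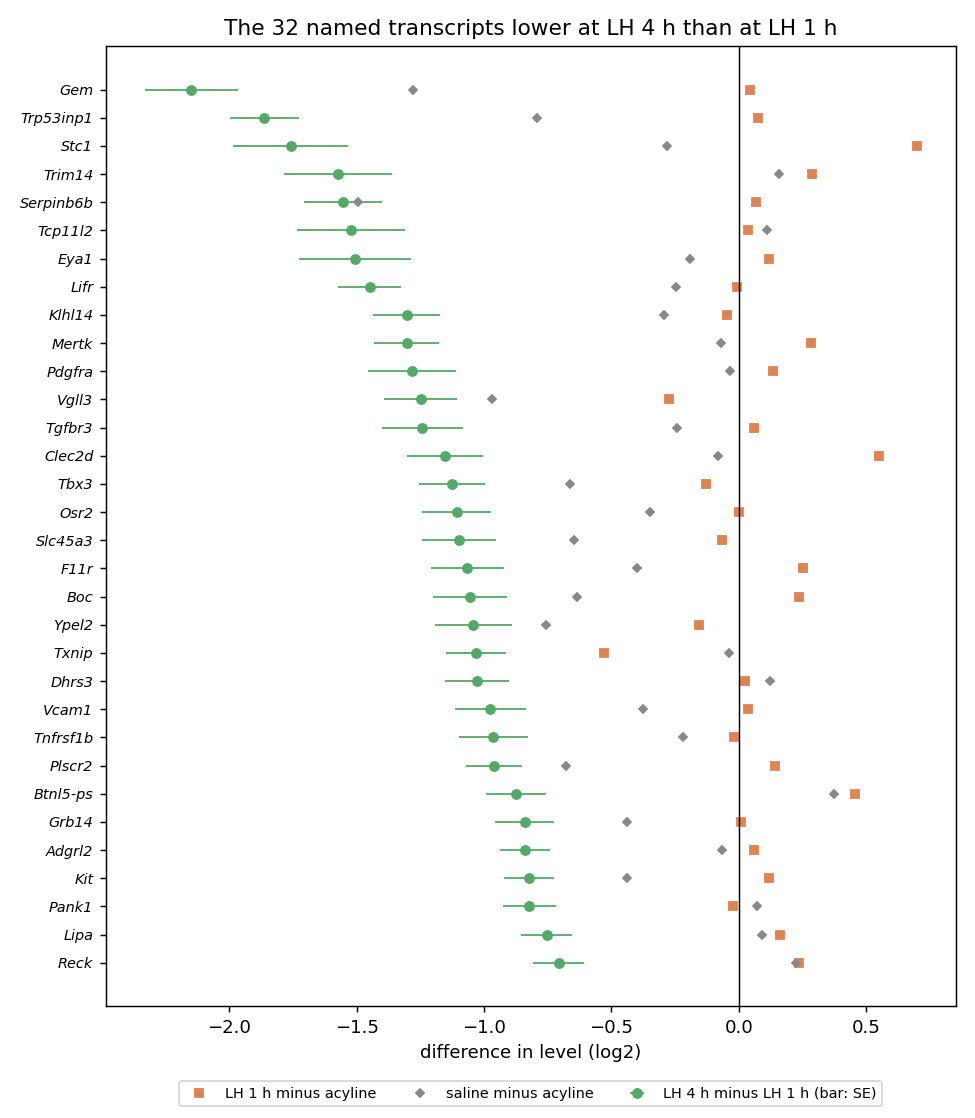
Differences in level (log2, horizontal axis) for the 32 named transcripts lower at LH 4 h (vertical axis): LH 4 h minus LH 1 h with its standard error, LH 1 h minus acyline and saline minus acyline. The LH 1 h points scatter around 0, within -0.61 to 0.70 for all 39 probe sets. The saline mean is below the acyline mean in 25 of the 32, with no share of all probe sets given.

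The transcripts that fell were mostly ones enriched in the Leydig IPs. In the saline IPs against saline inputs (3 arrays each), where the saline IPs also enter the fit of the LH contrast, 30 of the 39 lower probe sets were enriched at least 2-fold and 0 were depleted, where 11.0% of 24705 tested probe sets were enriched and 10.7% depleted. Their median IP/input ratio was 3.18, beside 0.980 for all. Among the highest ratios were those of Klhl14 (9.86), Tgfbr3 (9.28), Dhrs3 (9.26), Kit (9.26) and Vcam1 (9.23), while Gem (0.820) was not enriched. The 10 higher probe sets had a median ratio of 1.64, and 4 of them passed as enriched, among them Slc16a3 at 5.16 and Hvcn1 at 2.71, and 1 as depleted. Of the early transcripts Nr4a1 (0.390) was depleted, Egr1 (0.828) and Btg2 (1.61) were called in neither direction, and Rgs2 (3.76) and Rasd1 (5.21) were enriched.

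Small differences of 1 sign were frequent among genes of the translation machinery, although none passed the test. Of 34 tested genes of ribosome assembly and RNA polymerase I, 22 had both 4 h arrays above both 1 h arrays and 0 had them below, beside 20.4% and 22.2% of all probe sets, with a median difference of 0.27. For each pairing of a 4 h with a 1 h array the median of this list lay between 0.15 and 0.49. None of its members was called by limma (2 higher and 0 lower at an unadjusted p), and the largest difference was that of the nucleolar protein Rrp1b, from 6.48 in both 1 h arrays to 7.27 and 7.07 (0.69, SE 0.12, adjusted p = 0.068). Of 58 tested cytosolic ribosomal proteins, 41 had both 4 h arrays above and 1 below, with a median of 0.15, within 0.13 to 0.17 over the array pairs, and 0 were called (1 higher, 0 lower at an unadjusted p). Of 32 initiation and elongation factors, 18 were above and 5 below, with a median of 0.12 and 0 called (0 in either direction at an unadjusted p). Centring each array raised these 3 medians to 0.35, 0.23 and 0.20 and another quantile normalization lowered them to 0.22, 0.11 and 0.09, so none changed sign.

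Spermatid markers had a difference of like size, with a median of 0.22 over 18 genes, 9 with both 4 h arrays above (20.4% of all probe sets), 0 below and 0 called (1 higher at an unadjusted p), and their part in the differences of the ribosomal lists was not tested. Prm1, which packs sperm DNA, read 10.91 and 10.95 at 1 h and 10.84 and 11.37 at 4 h. Of 20 Sertoli cell markers 0 were called (1 lower at an unadjusted p), with a median of -0.06, and Sox9 read 8.24 and 7.98 at 1 h and 7.84 and 8.77 at 4 h. Prm1 and Sox9 were thus higher in LH 4 h replicate 2, and Star, Cyp11a1 and Fdx1 in replicate 1.

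In other lists single genes stood apart from a median near 0. Among 27 tested genes of glycolysis, lactate and pyruvate, Slc16a3 was the 1 called, with a list median of -0.06, and the lactate carrier Slc16a1, its relative, read 11.32 and 11.12 at 1 h and 11.13 and 10.72 at 4 h. The pyruvate dehydrogenase phosphatase Pdp1 went from 10.56 and 10.46 to 9.33 and 9.71 (-0.99, adjusted p = 0.062) and the opposing kinase Pdk4 from 9.06 and 8.91 to 8.49 and 8.11 (-0.69, adjusted p = 0.116). Of 14 FGF and sphingosine receptor genes, 0 were called, 4 were higher and 1 lower at an unadjusted p: S1pr3 read 9.56 and 9.04 against 10.58 and 10.23, and Fgfr4 8.34 and 8.30 against 9.95 and 8.90, while the kinase Sphk1, which makes sphingosine 1-phosphate, read 8.33 and 8.25 against 7.25 and 7.66 (adjusted p = 0.070). Of 19 tested ligand and matrix genes that LH induces in the ovary, 0 were called (0 higher and 3 lower at an unadjusted p), among them the prostaglandin synthase Ptgs2, with 7.43 and 5.53 at 1 h and 4.98 and 4.93 at 4 h, while Ereg and Has2 did not pass the signal filter. No member was called among 29 ATF4 targets and tRNA synthetases (median 0.13), 23 genes of the LH receptor and protein kinase A pathway (0.13), 21 folding genes of the endoplasmic reticulum (0.01), 17 chaperones (0.07), 16 genes of polyamine and nucleotide synthesis (0.14), 16 clock genes (-0.07) and 10 growth arrest genes (-0.08), with 0 to 2 of each list past an unadjusted p in either direction. Of 21 actin and Hippo response genes Txnip was the 1 called (median -0.01).

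**Figure D4:**
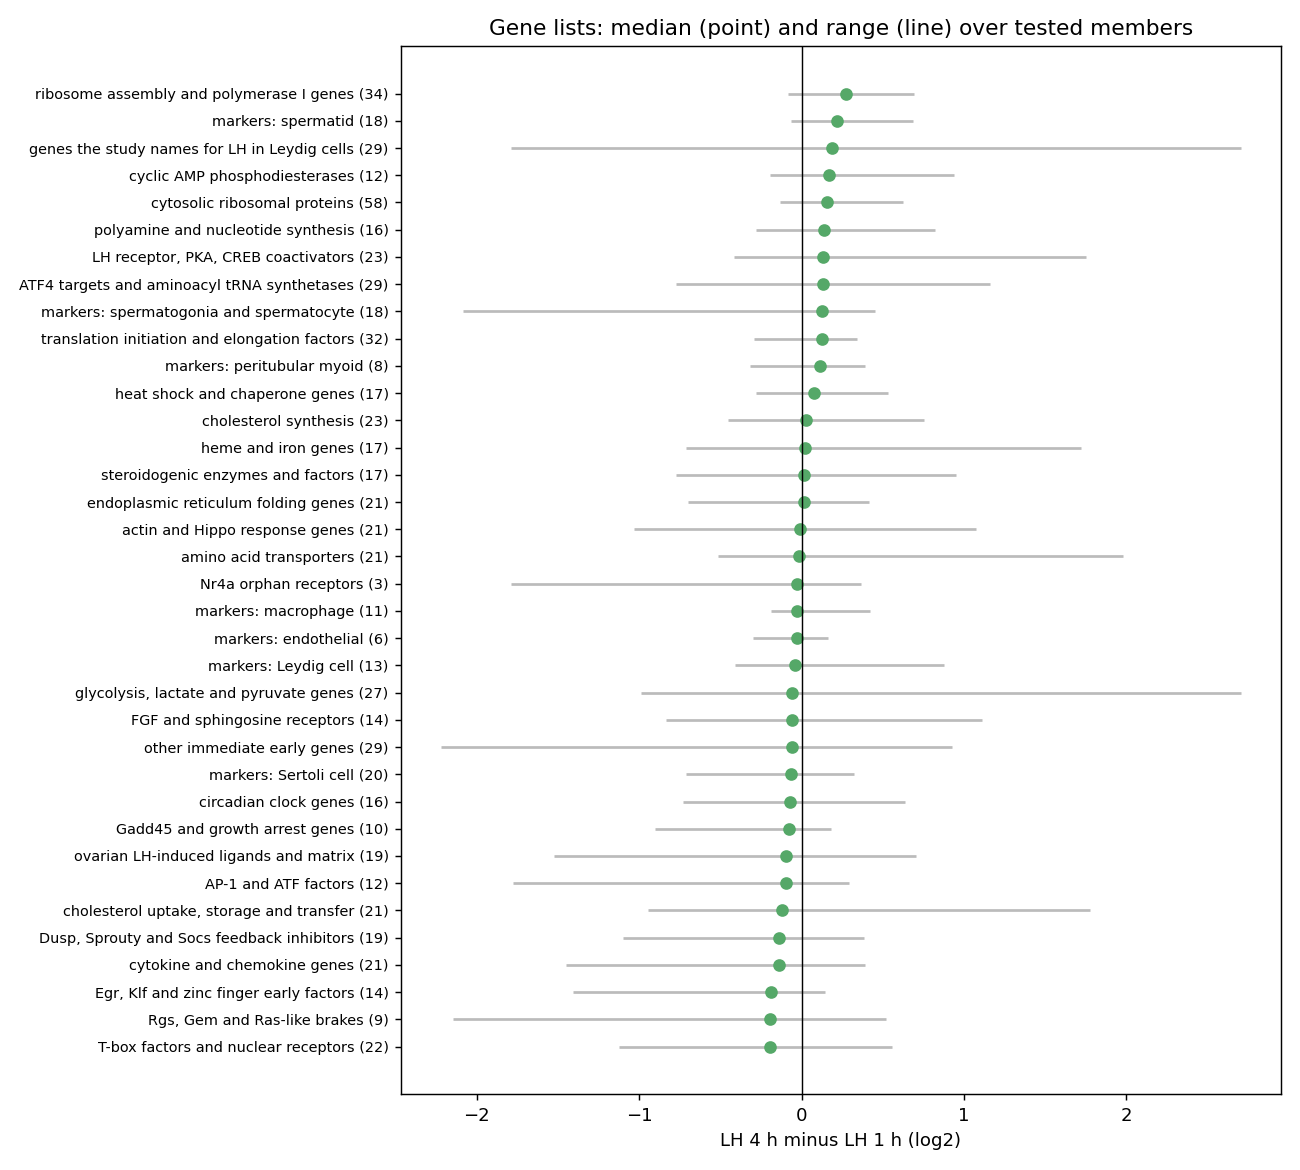
Median (point) and range (line) of the LH 4 h minus LH 1 h difference (log2, horizontal axis) over the tested members of each gene list (vertical axis, number of members in brackets). Medians lay between -0.19 and 0.27, while single members reached from -2.22 (Btg2) to 2.70 (Slc16a3).

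The same 4 h against 1 h contrast exists in Sertoli IPs of AMH-Cre:RiboTag mice given acyline and then FSH (2 arrays per time). Cell type, hormone, Cre line and, by the study's methods, length of acyline treatment differ together here and cannot be told apart. The change after LH differed from the change after FSH for 86 of 25267 probe sets, 16 of them more positive after LH (0.0633%) and 70 more negative (0.277%). Those arrays include the ones that defined the calls between LH 4 h and LH 1 h, so the overlap follows in part from that choice. Of the 39 probe sets that fell after LH, 24 passed this test, and of the 10 that rose, 3 did. Over the 39 the median change after FSH was -0.0031, within -0.40 to 0.92. Pdgfra had the most negative gap of the named genes that passed, with -1.28 after LH and 0.92 after FSH (difference -2.20, SE 0.42, limma adjusted p = 0.039). Slc16a3 (0.09), Etnk2 (0.15) and Hvcn1 (-0.18) had small changes after FSH.

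Pde4d gave 1.77 after LH, with LH 1 h arrays below the signal of 50, and 1.59 after FSH on probe set 10407124, a gap of 0.18 (adjusted p = 0.865). On its brighter probe set 10407097 the changes were 0.79 and 0.91, a gap of -0.13 (adjusted p = 0.907), and Star had a gap of -0.05 (0.87 after LH and 0.92 after FSH, adjusted p = 0.957). A gap that misses the threshold does not show that the changes were equal. The study reports Star and Lhcgr as de-enriched in the Sertoli IPs. How far mRNA of cells other than Sertoli cells enters the changes after FSH was not tested. Among the early genes Nr4a1 passed, with -1.79 after LH and 0.01 after FSH (adjusted p = 0.036), and Btg2 (-2.27, adjusted p = 0.076) and Fos (-1.41, adjusted p = 0.344) did not. The count of 86 was 342 without LH 1 h replicate 2, 339 without LH 4 h replicate 2, 23 without LH 1 h replicate 1, 35 without LH 4 h replicate 1, 24 and 12 without FSH 1 h replicates 1 and 2, and 15 without FSH 4 h replicate 2.

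**Figure D5:**
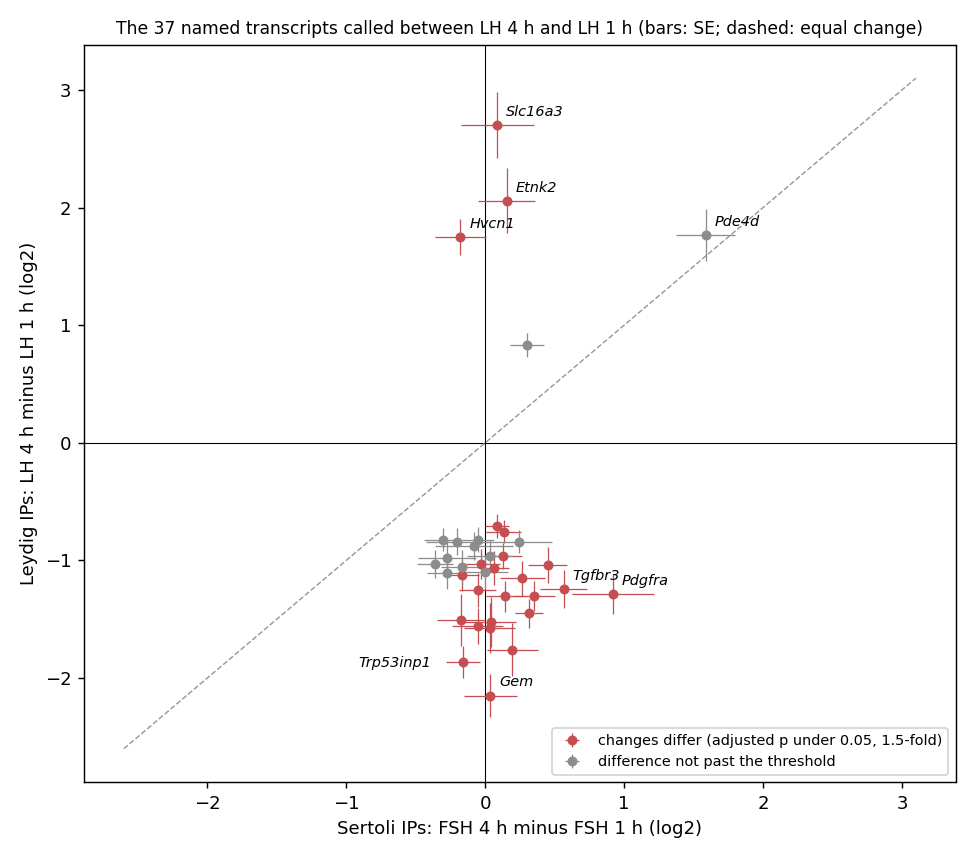
Change from 1 h to 4 h in Sertoli IPs after FSH (log2, horizontal axis) and in Leydig IPs after LH (log2, vertical axis) for the 37 named transcripts called after LH, with standard errors as bars and a dashed line of equal change. Red points passed the test of the difference between the changes, and Pde4d lies close to the line at 1.59 and 1.77.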

How the data were processed

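Gene expression was measured on single-colour Mouse Gene ST 1.0 arrays. The authors normalized the scanned arrays by robust multi-array averaging (RMA, version not given in the sources used here) and deposited 1 table of log2 values, which were used unchanged. Of 35556 probe sets, 21789 name 1 gene symbol in the platform annotation, 1621 name several and 12146 are unlisted, of which 131 were named from the study's lists of enriched transcripts. Of the symbols 21698 matched RefSeq and 0 changed. Results for Areg, Insl3 and Gapdh are not reported here.

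Probe sets with a linear signal over 50 in at least 1 array of a comparison were fitted with limma (version 3.58.1 in R 4.3.3) on the 9 Leydig IPs (5 residual degrees of freedom), with empirical Bayes moderation and no covariate. A call required a Benjamini-Hochberg adjusted p under 0.05 and a 1.5-fold difference (2-fold for IP against input). The LH and FSH changes were compared by an interaction term over the Leydig and Sertoli IPs (12 residual degrees of freedom). Scripts were tested on simulated data. Tables and figures were made with Python 3.11.15, pandas 2.3.3 and matplotlib 3.10.9.

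Named genes were the 15 largest calls with 1 symbol in each direction, members of 37 gene lists and genes the study names for LH, each by the probe set with the highest mean. Pde4d, Btnl5-ps and Adgrl2 were called on another probe set. Members and lists were chosen with earlier results of these data known. Alternatives covered the signal filter, scaling, variance model, fold, the arrays in the fit, a replicate block and each array left out.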

Additional observations from a re-analysis of the deposited data

Results flagged for a closer look

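The change from 1 h to 4 h differed between LH in Leydig IPs and FSH in Sertoli IPs for 86 probe sets, by limma's interaction term with an adjusted p under 0.05 and a 1.5-fold difference. Cell type, hormone, Cre line and length of acyline treatment differ together between these arrays and cannot be told apart. In the values that follow, the change after FSH is subtracted from the change after LH, on the log2 scale.

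The change was more positive after LH for Slc16a3 (2.62), Aqp2 (2.23), Hvcn1 (1.93), Etnk2 (1.91) and Scarb1 (1.61). Among receptors and adhesion proteins it was more negative for Pdgfra (-2.20), Tgfbr3 (-1.81), Lifr (-1.76), Mertk (-1.66), Clec2d (-1.42) and F11r (-1.13). Among transcription factors and cofactors it was more negative for Zbtb16 (-2.07), Nr4a1 (-1.80), Eya1 (-1.33), Vgll3 (-1.20), Gata4 (-0.98), Tbx3 (-0.96) and Atf6 (-0.82). Among signalling proteins and secreted factors the values were -2.18 for Gem, -1.96 for Stc1, -1.61 for Rasd1 and -1.61 for Trim14. Enzymes, carriers and inhibitors gave -1.50 for Serpinb6b, -1.23 for Abca1, -1.06 for Pdk4, -1.02 for Pdp1, -1.0 for Dhrs3, -0.89 for Lipa and -0.79 for Reck. The remaining genes were Trp53inp1 (-1.70), Tcp11l2 (-1.56), Ypel2 (-1.49), Klhl14 (-1.45) and Plscr2 (-1.09).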

How the results depend on the processing

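With 2 arrays per LH group the counts depend on the settings, and so do the calls of named genes. The differences of named genes can move only with the scaling or without an LH array, so their sign was fixed in the other settings. Against 10 higher and 39 lower probe sets, the counts were 1 and 6 with no signal filter, 46 and 105 with a signal over 100 in 2 arrays, 46 and 102 with an intensity trend in the variance, 0 and 0 with an ordinary contrast after adjustment, and 224 and 366 with the contrast of the study's methods (ordinary, unadjusted p). They were 298 and 488 with unadjusted p, 8 and 25 at 2-fold, 0 and 0 on the 4 LH arrays alone, 0 and 2 on the acyline and LH arrays, 15 and 27 after centring and 11 and 41 after quantile normalization. With 1 array left out they ran from 0 to 169 higher and from 0 to 169 lower. With the replicate number as a replicate block they were 1 and 1, and 28 in place of 86 for the LH and FSH changes, whose range with 1 array left out was 12 to 342. The labels do not say that a number pairs arrays, and deviations of same-numbered LH 1 h and LH 4 h arrays correlated at 0.103, so the block was not used. Of 111 named gene results, 2 changed sign when 1 LH 4 h array was left out, Mvd (0.64, from -0.15 to 1.43) and Alas2 (0.78, from -0.0404 to 1.60). The other named values kept their sign where it could change. Over all settings and named genes together, 439 values lost a call and 190 gained one. The causes were not tested.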
